A study of Mus musculus with 31 samples.

Results

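The genes described here carry the signal of interleukin 2 (IL-2) and interleukin 15 (IL-15) from the receptor to the transcription factor STAT5 and to a pair of its target kinases. They were taken as a named set of 10 genes, of 27179 in the deposited count table, and each was matched by its Entrez identifier. The set holds the receptor chains Il2ra, Il2rb, Il2rg and Il15ra, the kinases Jak1 and Jak3, the transcription factors Stat5a and Stat5b, and the serine-threonine kinases Pim1 and Pim2. All 10 passed the filter on low counts. The series sequenced RNA of natural killer (NK) cells sorted from mice, in 31 libraries; NK cells are innate lymphocytes that kill tumour and virus-infected cells. The 9 groups cross 3 genotypes with 3 conditions, namely cells left unstimulated and cells given the cytokine TGFB1 (transforming growth factor beta 1) for 4 h or 24 h. Wild type (WT) had 4 unstimulated libraries, 2 at 4 h and 4 at 24 h. The knockout of the type II TGF-beta receptor (TGFBRII KO, gene Tgfbr2) had 3 libraries in each condition, and the knockout of CIS (CIS KO, gene Cish) had 4 in each. How the knockouts were made, the strain, age and sex of the mice, and whether the medium held IL-2 or IL-15, were not given in the sources used here. How long the unstimulated cells were held was not given either. A change from them may therefore include a difference in time in culture, which was not tested.

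IL-15 is the main survival and growth cytokine of NK cells. It is bound by IL-15 receptor alpha, often on a neighbouring cell, and handed to a receptor of the shared beta chain (Il2rb) and the common gamma chain (Il2rg), which IL-2 also uses, with the alpha chain Il2ra raising the affinity for IL-2. JAK1 sits on the beta chain and JAK3 on the gamma chain, and together they phosphorylate STAT5A and STAT5B, which enter the nucleus and switch on genes such as Cish, Pim1, Pim2 and Il2ra itself. CIS, the product of Cish, is induced by STAT5 and restrains the same receptor.

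The count tables were shallow, with 297561 to 1403005 counts per library and a median of 736193. Totals ran from 701095 to 862331 in TGFBRII KO, from 297561 to 1135104 in WT and from 392266 to 1403005 in CIS KO. The shallowest library was replicate 1 of WT at 4 h. Levels are given as CPM, the usual depth-scaled count with TMM factors, and differences as log2 with their standard error (SE). A gene was called when its adjusted p in edgeR's quasi-likelihood test was under 0.05, with adjustment over the 10275 genes tested. The labels call the libraries biological replicates without tying them to animals, so p-values measure the spread between these libraries. All 12 NK cell markers checked had counts in some libraries, and their summed level was 3130 to 7178 CPM. Of these, 11 passed the filter on low counts, and Itga2 was at only 0 to 12.6 CPM (median 5.01 CPM). Cish, which checks the CIS KO label, was at 18.0 to 33.4 CPM in unstimulated CIS KO and at 129.9 to 175 CPM in unstimulated WT, 6.33-fold lower (adjusted p = 7.09e-13). Tgfbr2 RNA differed by 0.12 ± 0.13 (log2, SE) between unstimulated TGFBRII KO and WT, so counts over the whole gene did not check that label.

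Of the 10 genes, 3 carried nearly all the calls. Pim2 fell under TGFB1 in WT and in CIS KO at both times, Pim1 and Il2ra fell in both at 24 h, and in TGFBRII KO none of the 3 was called lower against unstimulated cells. Calls were few in the rest of the set: Il2rb, Il2rg, Il15ra, Jak1 and Stat5b were called in none of the 19 comparisons. Jak3 and Stat5a were called in 1 each. The share of all genes called ran from 0% to 24% over those comparisons. No call does not mean a steady level. Il15ra had only 4 to 26 counts per library, and the counts of Il2rb barely grew with depth (slope 0.241, where 1 is proportional). Per kilobase of exon, the median level over the 31 libraries was highest for Il2rg (123 CPM per kb), Jak1 (90.1 CPM per kb) and Il2rb (75.2 CPM per kb). The order among these is uncertain, as their libraries ran from 83.1 to 165, 73.0 to 116 and 45.1 to 150 CPM per kb. Their counts also grew less than in proportion to depth. Pim1 at 50.1 CPM per kb and Pim2 at 46.1 CPM per kb followed. Stat5b was at 20.1, Il2ra at 16.3, Jak3 at 12.2 and Stat5a at 11.6 CPM per kb, and Il15ra was lowest at 5.34 CPM per kb.

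**Figure D1:**
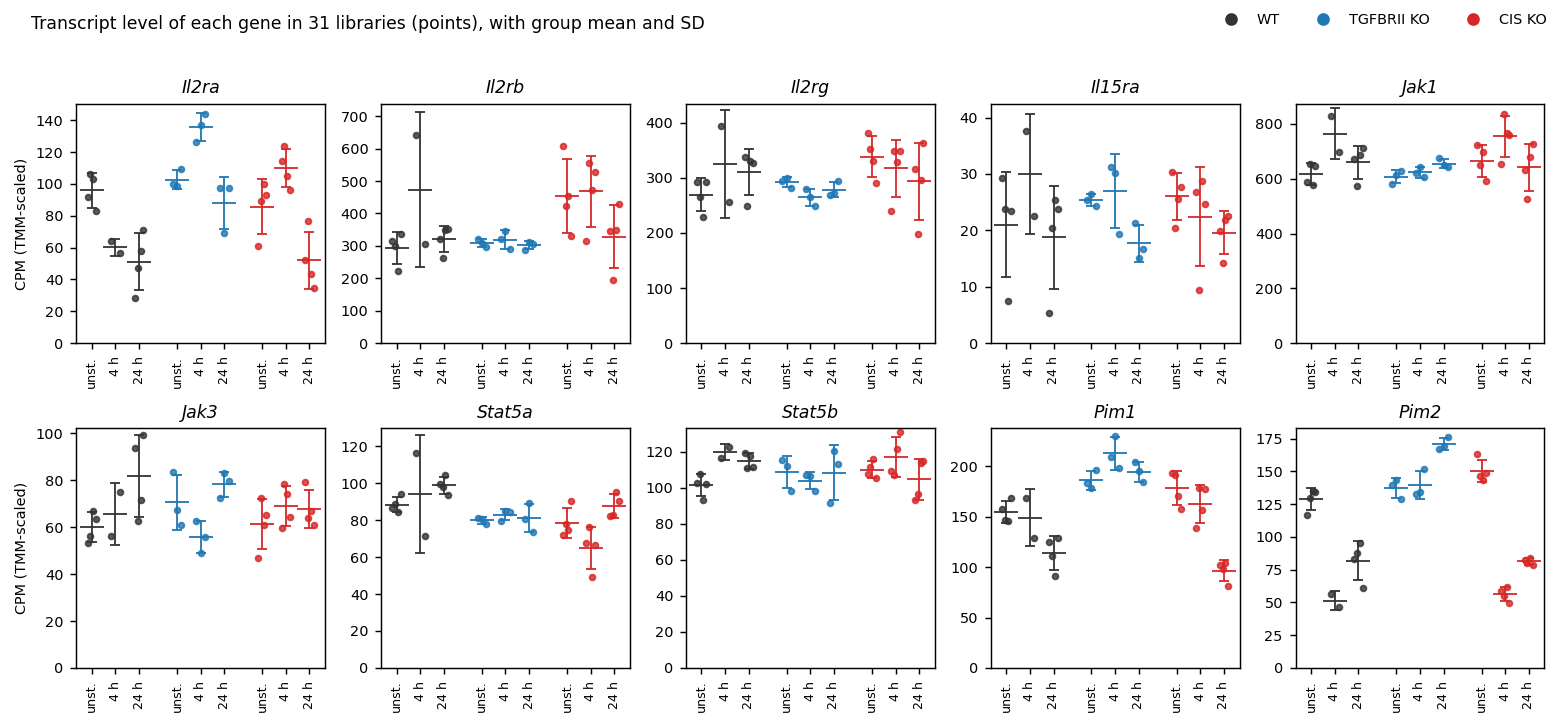
Level of each of the 10 genes (y axis, TMM-scaled CPM) in the 9 groups (x axis, 3 conditions for each genotype). Points are libraries, horizontal marks are group means and bars are SD; Pim2 drops to 46.3 to 61.8 CPM at 4 h in WT and CIS KO and stays between 128.8 and 176 CPM in TGFBRII KO.

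Il2ra (Entrez 16184; chr2:11642792-11693194, plus strand, mm10) encodes CD25, the alpha chain that makes the IL-2 receptor high in affinity. In WT it was at 91.5, 106, 103 and 82.9 CPM in unstimulated cells, at 63.9 and 56.4 CPM at 4 h, and at 28.2, 47.5, 58.1 and 71.2 CPM at 24 h. Neither treated group overlapped the unstimulated one. The 24 h level was 1.91-fold lower (log2 -0.93 ± 0.19, adjusted p = 0.000242), and the 4 h difference of -0.72 ± 0.25 was not called (adjusted p = 0.0588). It was called under 4 of 13 alternatives: library size alone, no filter, the compared groups alone, and without unstimulated WT replicate 4. In TGFBRII KO, Il2ra was at 100.0, 98.8 and 109 CPM in unstimulated cells, at 127, 137 and 144 CPM at 4 h and at 97.3, 69.1 and 97.6 CPM at 24 h. All 3 libraries at 4 h lay above the others of that genotype, but the difference from unstimulated cells of 0.40 ± 0.18 was not called (adjusted p = 0.175). The step down from 4 h to 24 h was called (-0.62 ± 0.18, adjusted p = 0.0292) and lost its call with DESeq2's Wald test and without replicate 2 or 3 of either group (highest adjusted p 0.184). In CIS KO, Il2ra was at 60.8, 89.1, 100.1 and 93.0 CPM in unstimulated cells, at 115, 124, 105 and 96.4 CPM at 4 h and at 52.4, 76.9, 43.7 and 34.8 CPM at 24 h. There it fell 1.95-fold between 4 h and 24 h (-0.96 ± 0.19, adjusted p = 0.000749), with no overlap. Against unstimulated CIS KO cells it fell by 0.63 ± 0.20 (adjusted p = 0.0181), with libraries that overlap, and this call was lost without CIS KO 24 h replicate 3 or without unstimulated replicate 3 or 4 (highest adjusted p 0.0577). Over the 9 group means Il2ra ran from 135.8 CPM in TGFBRII KO at 4 h to 51.3 CPM in WT at 24 h, and 7 of the 8 neighbouring pairs of groups in that order overlapped. Within groups the counts of Il2ra grew faster than the library total, at a slope of 1.46 ± 0.146 (SE) on a log-log scale, where 1 is proportional. With log2 library total as a covariate the 24 h differences from unstimulated cells were -0.87 in WT and -0.86 in CIS KO, and both were called.

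Il2rb (Entrez 16185; chr15:78479256-78511621, minus strand) encodes CD122, the signalling beta chain. Its counts stayed between 171 and 287 per library while totals differed far more widely, and its CPM was high where a library was shallow. Within groups its counts grew with library total at a slope of 0.241 ± 0.029 (SE) on the same log-log scale. The shallow WT 4 h replicate 1 gave 643 CPM and replicate 4 of that group 304 CPM, and the deepest library, CIS KO 24 h replicate 2, gave 193.5 CPM against 345, 348 and 428 CPM in the other 3. Unstimulated Il2rb was at 316, 298, 224 and 337 CPM in WT and at 608, 423, 454 and 330.2 CPM in CIS KO. That difference of 0.61 ± 0.20 was not called (adjusted p = 0.0574), though it was with no filter, with the compared groups alone and without unstimulated CIS KO replicate 4 (lowest adjusted p 5.49e-05 in edgeR). With log2 library total as a covariate it was 0.04 ± 0.06. With the same covariate the WT 4 h difference of Il2rb went from 0.61 (1.14 and called without replicate 4) to -0.06 and the CIS KO 24 h difference from -0.47 to -0.01 (-0.005 ± 0.06). In TGFBRII KO, whose totals were the most even, Il2rb was at 288 to 347 CPM in all 9 libraries.

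**Figure D2:**
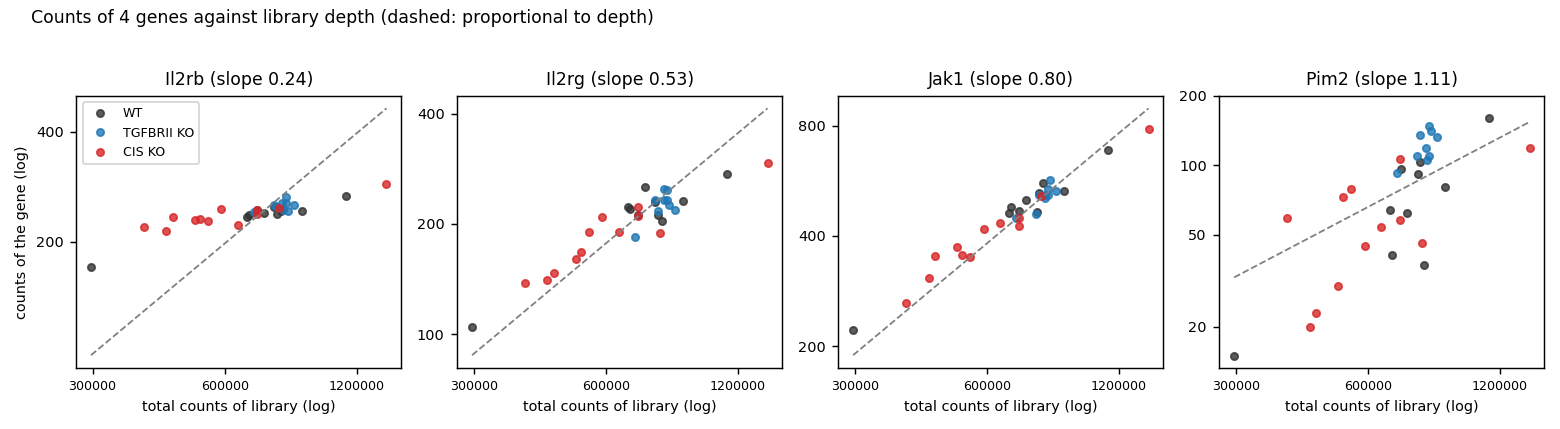
Counts of 4 genes (y axis, log scale) against the total counts of the library (x axis, log scale), 1 point per library in the colour of its genotype. The dashed line shows counts proportional to depth; Il2rb with its slope of 0.241 runs nearly flat, Il2rg with 0.531 and Jak1 with 0.801 lie between, and Pim2 follows depth.

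Il2rg (Entrez 16186; chrX:101264385-101268255, minus strand), the common gamma chain, behaved like Il2rb in this respect, with a depth slope of 0.531 ± 0.05. Its libraries ran from 198 to 395 CPM and every neighbouring pair of groups overlapped. The differences nearest to a call were in CIS KO. Unstimulated Il2rg was at 381, 353, 329.9 and 291 CPM in CIS KO and at 292, 265, 229 and 293 CPM in WT, a difference of 0.32 ± 0.15 (adjusted p = 0.15 in edgeR) that was -0.04 ± 0.08 with the depth covariate. Of its transcript windows of 50 bases, 27.5% also occur in the overlapping model Gm20489, so its counts are uncertain. Il15ra (Entrez 16169; chr2:11705172-11733985, plus strand), which presents IL-15, had only 4 to 26 counts per library. Its group means differed at most 1.70-fold, and its largest response, -0.51 in TGFBRII KO at 24 h, had a 95% interval from -1.25 to 0.22. At this depth a change of that size in Il15ra was not detectable.

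Jak1 (Entrez 16451; chr4:101151974-101265282, minus strand) was the deepest measured of the 10, with 221 to 782 counts per library and 527 to 837 CPM. In WT it was at 589.7, 655, 576 and 646 CPM in unstimulated cells, at 830.5 and 699 CPM at 4 h and at 671, 574, 687 and 711 CPM at 24 h. Both 4 h libraries lay above the unstimulated ones, with a difference of 0.30 ± 0.13 that was not called (adjusted p = 0.116 in edgeR). The depth slope of Jak1 was 0.801 ± 0.034. Its intervals were narrow: in CIS KO the change at 24 h was -0.06 (95% interval -0.26 to 0.14) and in TGFBRII KO 0.11 (-0.12 to 0.34). Jak3 (Entrez 16453; chr8:71676383-71690577, plus strand), the lymphoid partner on the gamma chain, had fewer counts, 15 to 95 per library. In WT it was at 53.4, 56.2, 67.1 and 63.5 CPM in unstimulated cells and at 94.0, 62.6, 71.5 and 99.4 CPM at 24 h. It rose 1.34-fold (0.42 ± 0.14, adjusted p = 0.0326), with overlapping libraries, and lost this call under 8 of 15 alternatives (highest adjusted p 0.15), among them without replicate 1 or 4 at 24 h and without unstimulated replicate 1 or 2. The depth slope of Jak3 was 1.09 ± 0.12.

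Stat5a (Entrez 20850; chr11:100859351-100885169, plus strand) and Stat5b (Entrez 20851; chr11:100780731-100859004, minus strand) are neighbouring copies of one ancestral gene. They share 608 windows of 50 bases, 8.21% of those of Stat5a and 11.0% of those of Stat5b, and reads there may be split or dropped. Stat5b ran from 91.4 to 131 CPM in all 31 libraries, and its group means differed at most 1.18-fold. In WT, Stat5b was at 103, 107, 93.0 and 102 CPM in unstimulated cells, at 117 and 123 CPM at 4 h, and at 119.5, 111, 118 and 111 CPM at 24 h. Both treated groups lay above the unstimulated one without overlap, and neither difference was called (0.26 ± 0.13, adjusted p = 0.229 in edgeR, and 0.19 ± 0.10, adjusted p = 0.216). Stat5a had its one call in CIS KO, where it was at 67.5, 76.1, 49.4 and 66.7 CPM at 4 h and at 82.1, 82.9, 95.1 and 90.5 CPM at 24 h. The later group was higher in every library, by 0.42 ± 0.13 (adjusted p = 0.0375), and the call was lost under 9 of 15 alternatives (highest adjusted p 0.208), 6 of them single libraries left out: replicates 2, 3 and 4 at 24 h and 1, 3 and 4 at 4 h. Between 24 h and unstimulated CIS KO cells Stat5a differed by 0.12 ± 0.12.

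Pim1 (Entrez 18712; chr17:29490785-29496111, plus strand) encodes a constitutively active kinase that favours growth and survival and is set largely by its transcript level. In WT it was at 158, 147, 146 and 168.5 CPM in unstimulated cells, at 169 and 129.0 CPM at 4 h and at 125, 111, 90.9 and 129 CPM at 24 h. All 4 libraries at 24 h lay below the unstimulated ones, 1.35-fold on average (-0.43 ± 0.11, adjusted p = 0.00278), while the 4 h difference was -0.12 ± 0.14. In CIS KO, Pim1 was at 193, 191, 171 and 158 CPM in unstimulated cells, at 139, 178, 157 and 178 CPM at 4 h and at 102, 97.8, 104 and 81.8 CPM at 24 h. The drop to 24 h was 1.82-fold from unstimulated cells (-0.86 ± 0.11, adjusted p = 6.85e-07) and 1.65-fold from 4 h (-0.72 ± 0.12, adjusted p = 6.67e-05), and in both the groups were apart. The drop of Pim1 in CIS KO differed from that in WT by -0.43 ± 0.16, which was not called (adjusted p = 0.197 in edgeR). In TGFBRII KO, Pim1 was at 184, 178 and 197 CPM in unstimulated cells, at 209.6, 230.4 and 199 CPM at 4 h and at 204, 196 and 185 CPM at 24 h. All 9 of these libraries lay above every WT library. Its changes there were 0.19 ± 0.11 at 4 h and 0.07 ± 0.11 at 24 h, and neither was called (adjusted p = 0.336 and 0.99 in edgeR).

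Pim2 (Entrez 18715; chrX:7878306-7883432, plus strand), a close relative of Pim1 that also promotes survival, had the widest range of the 10, with group means from 51.4 CPM in WT at 4 h to 171 CPM in TGFBRII KO at 24 h (3.33-fold). In WT it was at 117, 129.8, 135 and 134 CPM in unstimulated cells, at 56.4 and 46.3 CPM at 4 h and at 83.3, 87.4, 95.4 and 60.8 CPM at 24 h. The 3 conditions did not overlap. Pim2 was 2.62-fold lower at 4 h (-1.39 ± 0.16, adjusted p = 8.75e-08) and 1.57-fold lower at 24 h (-0.65 ± 0.10, adjusted p = 4.76e-06). The 24 h level was 0.74 ± 0.17 above that at 4 h (adjusted p = 0.0103). In CIS KO it was at 163, 147, 143 and 148 CPM in unstimulated cells, at 58.6, 54.7, 61.8 and 49.4 CPM at 4 h and at 82.1, 80.2, 84.2 and 78.3 CPM at 24 h. There it fell 2.63-fold at 4 h (-1.40 ± 0.12, adjusted p = 1.44e-10) and 1.84-fold at 24 h (-0.88 ± 0.10, adjusted p = 7.42e-08), with 0.52 ± 0.13 between the later times (adjusted p = 0.0126). Both steps from 4 h up to 24 h lost their calls with DESeq2. That in WT was also lost with the compared groups alone and without WT 4 h replicate 4 (0.54 ± 0.28). That in CIS KO was also lost without its 4 h replicate 4 (adjusted p = 0.0576). In TGFBRII KO, Pim2 was at 139, 143 and 129 CPM in unstimulated cells, at 132.5, 134 and 152 CPM at 4 h and at 167, 169.6 and 176 CPM at 24 h. The 4 h change was 0.03 ± 0.10, and the 24 h libraries lay above the rest with a difference of 0.32 ± 0.10 that was not called (adjusted p = 0.471 in edgeR). From 4 h to 24 h Pim2 was higher there too, by 0.29 ± 0.10, and not called (adjusted p = 0.0712 in edgeR). That step was called with the compared groups alone and with the depth covariate. The fall of Pim2 at 4 h in WT was called under each of the 13 alternatives (-1.48 to -1.20), with either WT 4 h library left out among them.

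The bases before the start sites of the 3 genes that moved are shown because they are the promoters nearest to those changes. They come from RefSeq on GRCm38.p6, the mm10 assembly, where 9 of the 10 genes had an entry. Each line gives the 250 bases before the start, 5′ to 3′ on the plus strand, and capitals mark GTCTG or its reverse complement CAGAC, the core letters bound by SMAD proteins, which carry the TGF-beta signal.
Pim2, chrX:7878056-7878305: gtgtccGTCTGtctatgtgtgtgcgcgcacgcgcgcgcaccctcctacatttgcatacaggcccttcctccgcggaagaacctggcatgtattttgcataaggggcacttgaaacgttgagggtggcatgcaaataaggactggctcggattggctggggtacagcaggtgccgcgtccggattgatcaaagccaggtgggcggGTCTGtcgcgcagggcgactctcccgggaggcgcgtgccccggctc
Pim1, chr17:29490535-29490784: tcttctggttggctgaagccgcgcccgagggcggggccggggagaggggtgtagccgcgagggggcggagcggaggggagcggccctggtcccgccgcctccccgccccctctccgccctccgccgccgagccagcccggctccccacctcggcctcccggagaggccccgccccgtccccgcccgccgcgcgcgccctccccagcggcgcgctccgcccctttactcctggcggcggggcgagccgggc
Il2ra, chr2:11642542-11642791: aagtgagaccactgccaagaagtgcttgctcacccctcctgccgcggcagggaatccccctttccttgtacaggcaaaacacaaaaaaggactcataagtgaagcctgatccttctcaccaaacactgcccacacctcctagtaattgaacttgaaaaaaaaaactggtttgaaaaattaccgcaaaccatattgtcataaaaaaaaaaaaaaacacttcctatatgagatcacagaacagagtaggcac
The Pim2 stretch holds 2 of these pentamers, and those of Pim1 and Il2ra hold 0. The whole window of that Pim1 start, with the 50 bases after it, holds 1, and so do the 250 bases before a second RefSeq start of Pim1 (window chr17:29492835-29493134). Of all windows, 42.2% of 32851 hold 1 or more in their first 250 bases. The Pim1 stretch shown holds 7 GC boxes (GGGCGG or CCGCCC, found in the first 250 bases of 32.7% of all windows). That of Pim2 holds 1, which ends where a pentamer begins. The STAT5 letters TTCNNNGAA, which read the same on both strands, were found in 0 of the 13 windows of 300 bases of the set and in 8.3% of all windows. In Cish, the STAT5-induced inhibitor, a pair of them stands within 20 bases of the window, capitals marking the motif. These bases lie among the 50 after the start, and the 250 bases before it hold 0.
Cish, chr9:107296659-107296678, plus strand: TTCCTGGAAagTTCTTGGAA
A match of letters describes the window only, and no match says nothing of binding elsewhere.

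**Figure D3:**
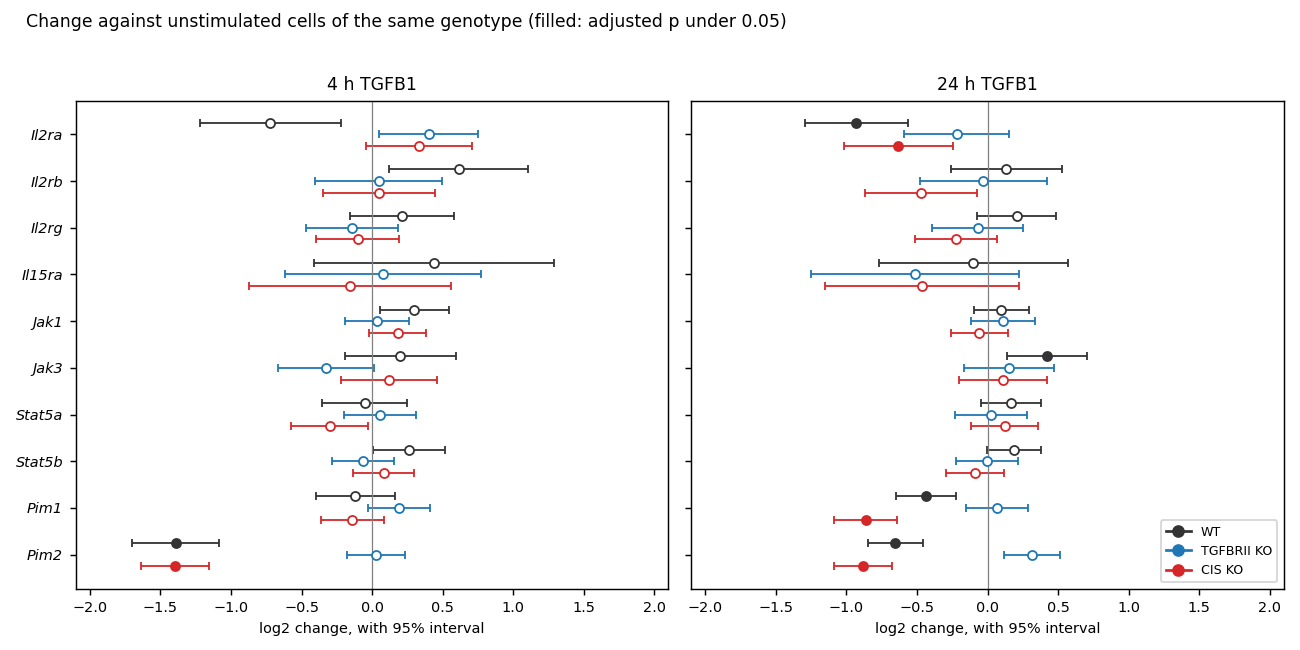
Change of each gene (log2, x axis, with 95% interval) from unstimulated cells of the same genotype after 4 h (left) and 24 h (right) of TGFB1. Filled symbols were called; Pim2 in WT (-1.39) and CIS KO (-1.40) at 4 h is the largest change, and no TGFBRII KO symbol is filled.

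Counted over the set, TGFB1 responses called few of the 10 genes, and the share of all genes called in either direction stands beside each count. In WT at 4 h 1 of the 10 was called lower (all genes 11.9%, and 5.03% lower). At 24 h in WT 3 were called lower and 1 higher (all genes 21.1%, with 11.5% lower and 9.63% higher). In CIS KO 1 was called lower at 4 h (all genes 14.1%, and 6.3% lower), and at 24 h 3 were called lower (all genes 24%, and 11.7% lower). In TGFBRII KO edgeR called 0 of the 10 at 4 h (all genes 8.02%) and 0 at 24 h (all genes 0.0195%). At an unadjusted p under 0.05 those counts were 1, Il2ra at 4 h, and 1, Pim2 at 24 h, and DESeq2 called 0 at both times. Between 4 h and 24 h, 1 was called higher in WT (7.57% of all genes, 3% higher) and 1 lower in TGFBRII KO (8.17%, 3.86% lower). In CIS KO 2 were called higher and 2 lower (15.4%, with 7.75% higher and 7.7% lower). The median log2 change of the 10 was 0.21 in WT at 4 h and 0.12 at 24 h, beside -0.02 and 0.03 over all genes. In CIS KO it was -0.03 at 4 h and -0.34 at 24 h, beside -0.003 and 0.04, and in TGFBRII KO 0.04 and 0.01, beside -0.01 and 0.01. Il2rb and Il2rg, whose CPM falls as library total rises, enter these medians. So do Jak1, with a depth slope of 0.801, and Il2ra, with 1.46.

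The response of TGFBRII KO was then set against that of WT by an interaction term, in which the unstimulated and treated WT libraries are shared with the results above. Pim2 differed at 4 h by 1.42 ± 0.19 (adjusted p = 7.9e-06) and at 24 h by 0.97 ± 0.14 (adjusted p = 5.64e-06). Il2ra differed at 4 h by 1.12 ± 0.31 (adjusted p = 0.0204), which became 1.00 ± 0.45 (adjusted p = 0.181) without WT 4 h replicate 4, and at 24 h by 0.71 ± 0.27, not called (adjusted p = 0.0875). Pim1 differed at 24 h by 0.50 ± 0.16 (adjusted p = 0.0317), a call lost under 9 alternatives (highest adjusted p 0.0997): DESeq2, no filter, and 7 libraries left out singly, namely TGFBRII KO 24 h replicates 1 and 2 and unstimulated replicates 1 and 2, WT 24 h replicates 2 and 3 and unstimulated WT replicate 4. These are 2 of the 10 genes at each time, all higher in TGFBRII KO, beside 7.57% of all genes at 4 h (3.96% higher) and 10.8% at 24 h (6.89% higher). For the other 7 genes the response difference was not called at either time.

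**Figure D4:**
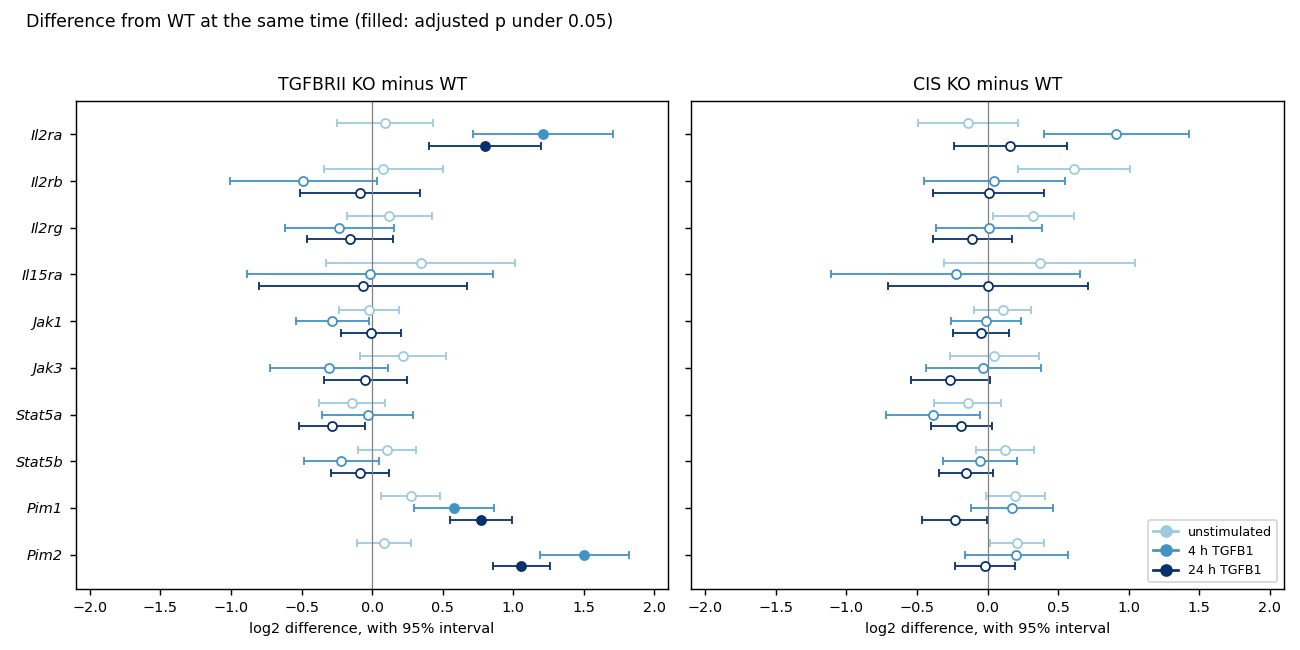
Difference of each gene from WT at the same time (log2, x axis, with 95% interval) in TGFBRII KO (left) and CIS KO (right), with 1 colour per condition. Filled symbols were called; in TGFBRII KO these are Il2ra, Pim1 and Pim2 at 4 h and 24 h, and the CIS KO panel has none.

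Levels were also compared between genotypes at the same time. In unstimulated cells edgeR called 0 of the 10 genes between TGFBRII KO and WT (0.146% of all genes). At an unadjusted p under 0.05 that count was 1, Pim1, at 0.27 ± 0.11 (adjusted p = 0.399) without overlap of the libraries, and DESeq2 called 0. At 4 h Il2ra was 2.32-fold higher in TGFBRII KO than in WT (1.21 ± 0.25, adjusted p = 0.000922), Pim1 1.49-fold (0.58 ± 0.14, adjusted p = 0.00546) and Pim2 2.84-fold (1.51 ± 0.16, adjusted p = 1.95e-08), that is 3 of the 10 beside 11.8% of all genes (5.63% higher). Without WT 4 h replicate 4 the Il2ra difference was 1.09 ± 0.41 and that of Pim1 0.33 ± 0.21, both no longer called, while that of Pim2 was 1.31 ± 0.26. Pim1 also lost its call with the compared groups alone and without TGFBRII KO 4 h replicate 2. At 24 h the same 3 genes were called, Il2ra 1.74-fold (0.80 ± 0.20, adjusted p = 0.0033), Pim1 1.71-fold (0.77 ± 0.11, adjusted p = 1.75e-06) and Pim2 2.08-fold higher (1.06 ± 0.10, adjusted p = 5.45e-10), beside 21.6% of all genes (11.5% higher). For Pim1 and Pim2 no library of the genotypes overlapped at either time, and for Il2ra they overlapped at 24 h.

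Loss of CIS, the inhibitor of this receptor, came with no called difference in any of the 10 genes. edgeR called 0 in unstimulated cells (6.15% of all genes), 0 at 4 h (0.273%) and 0 at 24 h (3.27%), and DESeq2 called 0 at each time. Those shares of all genes were unstable. The 632 genes behind that in unstimulated cells were 73 with the depth covariate and 54 to 1123 with a library left out, and the 28 at 4 h were 5 without WT 4 h replicate 4. At an unadjusted p under 0.05 there were 2 in unstimulated cells, Il2rb and Il2rg, then 1 at 4 h, Il2ra, and 0 at 24 h. Il2ra at 4 h lay higher in all 4 CIS KO libraries than in both WT libraries, by 0.91 ± 0.26 (adjusted p = 0.146), and it was called with the depth covariate (0.97 ± 0.24, adjusted p = 0.0391). The response to TGFB1 of CIS KO and WT differed for Pim2 by -0.01 (95% interval -0.46 to 0.45) at 4 h and by -0.23 (-0.51 to 0.06) at 24 h. The 4 h interval rests on 2 WT libraries. Over the set, 0 interaction terms were called at 4 h (0% of all genes) and 0 at 24 h (1.33%), with 1 (Il2ra) and 3 (Il2rb, Il2rg and Pim1) at an unadjusted p under 0.05, and 0 with DESeq2.

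Markers of other cells and of sex moved with some of these comparisons, and their part in the results was not tested. The summed level of 10 T cell markers was lower at 4 h in every genotype: 239 to 263 CPM against 339.6 to 384 unstimulated in WT, 193 to 286 against 293 to 347 in CIS KO, and 252 to 304 against 433 to 446 in TGFBRII KO, where Pim2 was not called. Of those markers 6, Cd4 and Cd8a among them, had a median count of at most 1. The summed level of 7 B cell markers, carried by Ighm with Ms4a1 and Pax5 at 0 in all libraries, was 9.28 to 34.4 CPM in unstimulated WT and CIS KO and 81.5 to 171 CPM in their treated cells, and 14.4 to 42.7 CPM throughout TGFBRII KO. The stroma or epithelium markers summed to 264 to 305 CPM in unstimulated WT and 348 to 421 CPM at 4 h, and in CIS KO to 343 to 377 and 379.5 to 487 CPM. In TGFBRII KO those sums overlapped, at 296 to 313.5 and 282 to 348.5 CPM. The stroma or epithelium sums were carried by Pecam1 and Epcam (medians 240 and 90.9 CPM over all libraries). Of these 8 markers, 6 had a median count of at most 1. The myeloid markers of TGFBRII KO summed to 238 to 277 CPM in unstimulated cells and to 177 to 199 CPM at 4 h. The myeloid sum was carried by Itgax (median 185.6 CPM over all libraries), and 6 of the 9 markers had a median count of at most 1. Of the NK cell markers themselves, 11 of 12 were tested, and 5 were called lower in CIS KO at 24 h and 3 in WT at 24 h (list medians -0.41 and 0.01, beside 11.7% and 11.5% of all genes lower), where Pim1, Pim2 and Il2ra were also lower. Xist, transcribed from the inactive X chromosome of females, was at 91.1 to 222 CPM in WT, 12.6 to 131 CPM in TGFBRII KO and 0 to 5.22 CPM in CIS KO, and a sum of 4 Y-linked transcripts at 1.38 to 124, 187 to 451 and 392 to 558 CPM. Genotype and sex therefore cannot be told apart in comparisons between genotypes, and Il2rg and Pim2 lie on the X chromosome. In unstimulated cells Pim2 differed by 0.09 ± 0.10 between TGFBRII KO and WT and by 0.21 ± 0.10 between CIS KO and WT. TGFBRII KO replicate 2, the lowest in Xist of its genotype at each time, had Pim2 at 143, 134 and 169.6 CPM, against 129 to 139, 132.5 to 152 and 167 to 176 CPM in the other replicates. In bulk RNA, fewer cells with a transcript and less of it per cell cannot be told apart.

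The other genes of the pathway were read from lists, by the genes called. Among the inhibitors of JAK-STAT signalling, 18 of 19 genes were tested. In WT 3 were higher and 1 lower at 4 h (all genes 6.9% and 5.03%): Ptpn6, the phosphatase SHP-1, rose by 0.67, Cish by 0.58 and Socs1 by 0.84, and Socs2 fell by 0.78 (log2). At 24 h 4 were higher (all genes 9.63%), Ptpn6 at 0.69, Cish at 0.48, Socs6 at 0.60 and Socs1 at 0.56. The list's median was 0.15 at 4 h and 0.22 at 24 h, beside -0.02 and 0.03 for all genes. In CIS KO 3 were called higher at 4 h (all genes 7.76%). At 24 h 3 were called higher and 1 lower (all genes 12.3% and 11.7%). There the remaining Cish transcript rose by 0.81 at 4 h and 1.07 at 24 h, Ptpn6 by 0.97 and 0.81, and Dusp4 by 2.70 at 4 h. In TGFBRII KO Cish differed by 0.16 at 4 h and 0.27 at 24 h and was not called (adjusted p = 0.528 and 0.684 in edgeR). There 1 of the 18 inhibitors was called lower at 4 h (all genes 3.45%), Pias1, which restrains STAT proteins, at -0.43.

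Of the 20 other STAT5 targets, 19 were tested. In WT at 4 h 3 rose (all genes 6.9%): the survival gene Bcl2 by 0.57, the NK lineage factor Nfil3 by 0.54 and Id2, a factor NK cells need, by 0.74. At 24 h in WT Bcl2 was higher than in unstimulated cells (0.44; all genes 9.63%), while perforin, Prf1, fell by 1.05 and the cyclin Ccnd3 fell by 0.68 (11.5% of all genes were lower). In CIS KO at 4 h Bcl2 rose by 0.70, Nfil3 by 0.62 and interferon gamma, Ifng, by 0.68 (3 of 19, all genes 7.76%). At 24 h 4 were lower in CIS KO (all genes 11.7%): Prf1 at -1.13, granzyme B, Gzmb, at -0.73, the third Pim kinase Pim3 at -0.50 and the costimulatory receptor Tnfrsf9 at -0.61. In TGFBRII KO at 4 h Nfil3 rose by 0.72 and the cell cycle inhibitor Cdkn1a by 0.59 (2 of 19, all genes 4.57%). From 4 h to 24 h 10 of the 19 were called lower in CIS KO, with a list median of -0.43, beside 7.7% of all genes. In WT 6 were called lower over that step, with a median of -0.43 beside 4.57% of all genes, and in TGFBRII KO 2, with a median of -0.23 beside 3.86%. Nfil3 was among them in each genotype, at -0.73 in WT, -0.50 in TGFBRII KO and -0.72 in CIS KO. Against WT at 4 h, 6 of the 19 were higher in TGFBRII KO (all genes 5.63%), among them Pim3 (0.78), Myc (2.45), Ccnd3 (1.06) and Prf1 (0.69). At 24 h 5 were higher and 2 lower (all genes 11.5% and 10.1%), with Prf1 at 1.53, Ifng at 0.71, Cdkn1a at 0.59 and the cyclin Ccnd1 at -2.02. By the interaction term of TGFBRII KO against WT, 0 of the 19 were called at 4 h (all genes 7.57%). At 24 h 1 was called higher (all genes 6.89%). In unstimulated cells 6 were higher and 1 lower in CIS KO than in WT, with Cdkn1a at 0.66, Pim3 at 0.59, Gzmb at 0.69 and Osm at 1.17, beside 3.19% of all genes higher and 2.96% lower. The count over all genes in that comparison, 632, was 54 without unstimulated WT replicate 3 and 1123 without unstimulated CIS KO replicate 4.

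All 7 other JAK and STAT genes were tested. Among them Stat4, which carries the interleukin 12 signal, fell in WT at 4 h by 0.53 (all genes 5.03% lower) and in TGFBRII KO at 4 h by 0.40 (3.45% lower). Stat3 rose in WT at 4 h by 0.39 (6.9% higher), and Stat6 in CIS KO at 24 h by 0.54 (12.3% higher). Of the 27 genes of the PI3K and RAS arms, all were tested: in WT 1 was called at 4 h (Fyn, 0.37) and 2 at 24 h (Fyn, 0.30, and the PI3K regulatory subunit Pik3r1, which fell by 0.45). In CIS KO at 24 h Pik3r1 fell by 0.77 and Akt1 by 0.37, and Pik3cg rose by 0.38. In TGFBRII KO at 4 h Pik3cg, a PI3K catalytic subunit, fell by 0.83 and the kinase Rps6kb1 rose by 0.46. The shares of all genes called are those given above for the same comparisons. Of the 10 ligands and other common gamma chain receptors 3 passed the filter, and in CIS KO at 24 h 2 of them were called lower, Il4ra at -0.56 and Il21r at -0.37.

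Over the 9 group means of log2(CPM + 1), the genes most like Pim2, Pim1, Il2ra and Il2rb were sought among 10069 genes. They were, for Pim2, Elk1 (Pearson r = 0.971), Zfp512 and Slc25a33 (both 0.967), and for Pim1, Plek (0.979), Mapk6 (0.966) and Ccl3 (0.964). For Il2ra they were Tbc1d2b (0.967), Mrs2 (0.944) and Bcr (0.94). For Il2rb they were Eef1d (0.996), Rpsa (0.991) and Tyrobp (0.991). These are descriptions over 9 points that share libraries and depth, and the genes were chosen from many by their likeness.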

How the data were processed

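The authors deposited 1 table of raw read counts per gene, with 31 columns matched to sample titles. Per the submitters' processing notes, FastQC, Trimmomatic, Subread, Picard, SAMtools and featureCounts were used with mm10; their versions and roles, the strand setting and any removal of duplicates were not given in the sources used here. The library kit keeps strand, per the labels' protocols. Symbols came from RefSeq for 25275 of 27179 identifiers, and the rest held 0.958% of counts. The tests used edgeR 4.0.16 under R 4.3.3 (TMM, filterByExpr, 10275 genes, 9 groups with 1 shared spread, quasi-likelihood F-test, Benjamini-Hochberg), checked on simulated data. DESeq2 1.42.0, other scalings, no filter, the compared groups alone, log2 library total as a covariate, a replicate block and each library left out were alternatives. The 10 genes and the lists were chosen with earlier results of these data known. All 10 are named; of other lists, up to 4 genes with the smallest p per comparison, plus Cish and Tgfbr2; for 4 members, the 3 genes most like each among genes of at least 5 CPM. No column was left out. The results of 1 gene of the JAK and STAT list are not reported here.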

Additional observations from a re-analysis of the deposited data

Results flagged for a closer look

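Interaction terms found 4 differences in response between TGFBRII KO and WT among the 10 genes: Il2ra at 4 h (1.12), Pim2 at 4 h (1.42), Pim1 at 24 h (0.50) and Pim2 at 24 h (0.97), all log2 and all higher in TGFBRII KO. Within the 50 gene-by-group sets of 4 libraries, 1 library stood apart by Dixon's criterion: Il2rg in WT at 24 h was at 249 CPM in replicate 2, the deepest of that group, and at 326 to 338 CPM in the other 3. Chance flags about 1 in 20 such sets.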

How the results depend on the processing

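Of 190 gene-by-comparison results, 25 were called; 15 of these kept direction and call under every alternative, 10 lost the call under at least 1, and none turned direction. Of the 165 not called, 17 were called under some alternative, and Il2rg between 4 h and 24 h in WT went from 0.00 to 0.28 with the depth covariate. Larger moves in the counts of the 10 genes called are listed below, and smaller ones are not. Among the smaller, WT at 24 h (4) lost Jak3 under 8 of 15 alternatives. CIS KO at 24 h (3) and TGFBRII KO against WT at 4 h (3) lost or gained a gene under some alternatives. WT at 4 h (1): library size alone 2, no filter 3, compared groups alone 2, leaving out a library 1 to 2. TGFBRII KO at 4 h (0): compared groups alone 1. CIS KO at 4 h (1): depth covariate 2. WT 24 h against 4 h (1): DESeq2 0, no filter 2, compared groups alone 0, depth covariate 2. TGFBRII KO 24 h against 4 h (1): DESeq2 0, compared groups alone 3, depth covariate 2, leaving out a library 0 to 1. CIS KO 24 h against 4 h (4): DESeq2 2, leaving out a library 2 to 5. CIS KO against WT, unstimulated (0): no filter 1, compared groups alone 1, leaving out a library 0 to 1; at 4 h (0): no filter 1, depth covariate 1. Response of TGFBRII KO against WT at 4 h (2): leaving out a library 1 to 2; at 24 h (2): DESeq2 1, leaving out a library 1 to 3. Response of CIS KO against WT at 4 h (0) and 24 h (0): no filter 1 each. The causes were not tested. Where leaving out a library left WT at 4 h with 1, that library was assumed to vary like the other groups. The labels do not say whether replicate numbers pair libraries. Over 29 same-genotype pairs with 1 number the correlation of deviations was -0.388 to 0.25 (median 0.03), with 7 over 0.1. Over 78 such pairs with unlike numbers the median was -0.001, with 12 over 0.1. In TGFBRII KO, replicate 2 had the lowest Xist at each time (22.9, 30.2 and 12.6 CPM). Correlations this weak cannot show whether same-numbered libraries share animals, which was not tested. With the replicate block no count of genes called moved (WT at 4 h stayed at 1, CIS KO 24 h against 4 h at 4). Depth limits Il15ra, with 4 to 26 counts, and CPM of Il2ra, Il2rb and Il2rg moves with library total.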
